A study of Homo sapiens with 6 samples.

Results

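Matrix metalloproteinases (MMPs) and their tissue inhibitors (TIMPs) were followed in LX-2 cells after depletion of ADAMTS12, a secreted protease of the related ADAMTS family. The genes were MMP1, MMP2, MMP3, MMP9, MMP10, MMP14, MMP16, TIMP1, TIMP2 and TIMP3, taken by their symbols, which makes 10 of the 60669 genes in the deposited table. LX-2 is a human cell line derived from hepatic stellate cells, labelled as activated and of wild-type genotype, so it stands for 1 immortal line and not for stellate cells of the liver as a whole. One group of 3 libraries received an siRNA against ADAMTS12 (siADAMTS12) and the other group of 3 a commercial negative control siRNA (siCTL). Both were given by lipid transfection and collected after 48 h, and RNA was sequenced from stranded poly(A) libraries. A single siRNA sequence targeted ADAMTS12.

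MMPs are zinc-dependent proteases, most of them secreted, that cut collagens and other matrix proteins. They are made as inactive precursors and are held in check by TIMPs, which bind the active site. In the liver, stellate cells are a main source of both, and the balance between them bears on whether scar matrix is laid down or removed. Within the family MMP1 is the interstitial collagenase, MMP2 and MMP9 are gelatinases, MMP3 and MMP10 are stromelysins, and MMP14 and MMP16 are anchored in the plasma membrane.

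Values are the authors' normalized counts, and fold changes are siADAMTS12 over siCTL on the log2(value + 1) scale with the standard error (SE) of limma. Adjusted p-values come from limma's fit to all 15637 genes with a mean of at least 10, by the Benjamini-Hochberg method, with a threshold of 0.05. Libraries with the same replicate number deviated together, so a second fit took that number as a block and is set beside the fit by group alone. Nothing in the labels ties the replicates to independent cultures, and the p-values therefore describe variation among these 6 libraries that may be partly technical. An exact 2-sided permutation test of 3 against 3 cannot give a p below 0.1, and it gave 0.1 for each member whose groups did not overlap.

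The targeted gene, ADAMTS12 (ENSG00000151388), stood at 4083, 3449 and 3687 in the siADAMTS12 libraries and at 13709, 12235 and 13423 in the siCTL libraries, which left 28.5% of its transcript. Library totals of the normalized values were 30.7 to 31.4 M in siADAMTS12 cells and 33.6 to 34.1 M in siCTL cells. Of 14 stellate and fibroblast markers, 12 were tested, and 5 fell and 1 rose by group alone. Of all 15637 genes tested, 15.5% fell and 11.5% rose by group alone, and 19.6% and 15.5% with the block. With the block the markers COL1A1, COL1A2, COL3A1 and RGS5 fell as well (limma adjusted p = 0.0259, 0.00215, 0.0377 and 0.0482). The 14 markers summed to 285645 to 309302 in siADAMTS12 libraries, against 377343 to 419154 in siCTL libraries. VIM was the largest term of this sum in every library, followed by COL1A1. Its level was 137566 ± 6404 in siADAMTS12 cells and 201651 ± 9818 in siCTL cells (SD, n = 3), so the sum largely follows single genes. LRAT, which esterifies retinol for storage in quiescent stellate cells, was at 0 in every library, and the muscle filament gene DES was at 0 in all but siCTL replicate 3, where it was at 5. Of the markers of other liver cells, 7 of 8 hepatocyte genes, 2 of 7 endothelial genes, 4 of 8 leukocyte genes and 2 of 6 epithelial genes did not exceed 3 in any library. The others were detected, among them SOX9 of the epithelial list, at 1606 ± 184 in siADAMTS12 cells and 1747 ± 186 in siCTL cells (SD, n = 3). Its level alone does not show that duct cells were present. The endothelial list summed to 188 to 229 in siADAMTS12 libraries and 289 to 314 in siCTL libraries, and 1 of its 3 tested genes fell. The hepatocyte list summed to 22 to 28 in siADAMTS12 libraries and 17 to 19 in siCTL libraries, nearly all of it SERPINA1. The leukocyte list summed to 120 to 151 and the epithelial list to 1733 to 2073 in siADAMTS12 libraries, against 129 to 153 and 1874 to 2233 in siCTL libraries. Most of the epithelial sum was SOX9. The part of these shifts in the results was not tested. In bulk RNA, fewer cells of a kind and less RNA per cell cannot be told apart.

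The siRNA and the transcript ends it can match are shown because short matches to an siRNA's guide strand can lower other transcripts. The sense strand given in the labels lies in ADAMTS12 (chr5:33637728-33637746, minus strand, GRCh38). Its capitals mark the letters that a transcript shares when it pairs with guide positions 2 to 8:
siRNA sense strand: gccaaaguuugGAGGGAAa
siRNA guide strand: uUUCCCUCcaaacuuuggc

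Among the 10 members, 2 held the full 7-base match in the 3' UTR (TIMP3 and MMP16), 3 held only the 6-base match to guide positions 2 to 7 (MMP3, MMP14 and TIMP2), and 5 held neither (MMP1, MMP2, MMP9, MMP10 and TIMP1). The sites outside MMP16 are given with the matching letters in capitals, each as 22 bases of GENCODE 29 transcript (GRCh38) that end opposite guide position 1:
TIMP3 (chr22:32859951-32859972, plus strand): atgtaagagtgaggGAGGGAAg
MMP14 (chr14:22846671-22846692, plus strand): tgcctcacctaccccAGGGAAc
MMP3 (chr11:102835998-102836019, minus strand): ctcgagtcacactcaAGGGAAc
TIMP2 (chr17:78854562-78854583, minus strand): aagtccagcctaggaAGGGAAg
TIMP2 (chr17:78854362-78854383, minus strand): gctaagaaacttcctAGGGAAc
TIMP2 (chr17:78854354-78854375, minus strand): acttcctagggaactAGGGAAc

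The last pair of TIMP2 windows overlap. MMP16 has a 3' UTR of 9452 bases with 2 copies of the 7-base match. At least 1 of them is extended by the A opposite guide position 1 to the 8-base form. The 6-base match occurred 8 times in this 3' UTR, those inside the 7-base copies included. Of 12609 tested genes with a protein-coding transcript and a 3' UTR of at least 30 bases, 15.6% held the 7-base match. It was in 30.7% of the genes that fell and in 10.9% of the genes that rose. Only the 6-base match was held by 25.7% of the 12609 genes, by 30.7% of those that fell and by 27.6% of those that rose. A longer 3' UTR has more places for a match, and 3' UTR lengths were not compared between these sets.

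Depletion of ADAMTS12 went with lower levels of 6 of the 9 MMP and TIMP genes that could be tested, and 0 rose. The gelatinase MMP9 fell 3.68-fold, the membrane proteases MMP14 and MMP16 fell 1.44-fold and 1.37-fold, and TIMP3, TIMP1 and TIMP2 fell 1.45-fold, 1.34-fold and 1.15-fold. The collagenase MMP1 was lower in each same-numbered pair of libraries and passed only with the replicate block, as did the stromelysin MMP3, whereas MMP2 passed in neither. MMP10 was at or below 2 in every library, did not reach the filter on low values and is given no fold change.

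These counts stand against a background in which 15.5% of the 15637 genes tested fell and 11.5% rose, 27.0% in either direction. At an unadjusted p under 0.05, 7 members were lower and 0 higher, against 20.9% of all genes lower and 18.0% higher. With the replicate block 8 members fell and 0 rose, against 19.6% of all genes that fell and 15.5% that rose. The median log2 fold change of the 9 members tested was -0.46, beside 0.00 over all genes tested. All siADAMTS12 libraries lay below all siCTL libraries for 6 members, as they did for 21.7% of all genes tested.

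**Figure D1:**
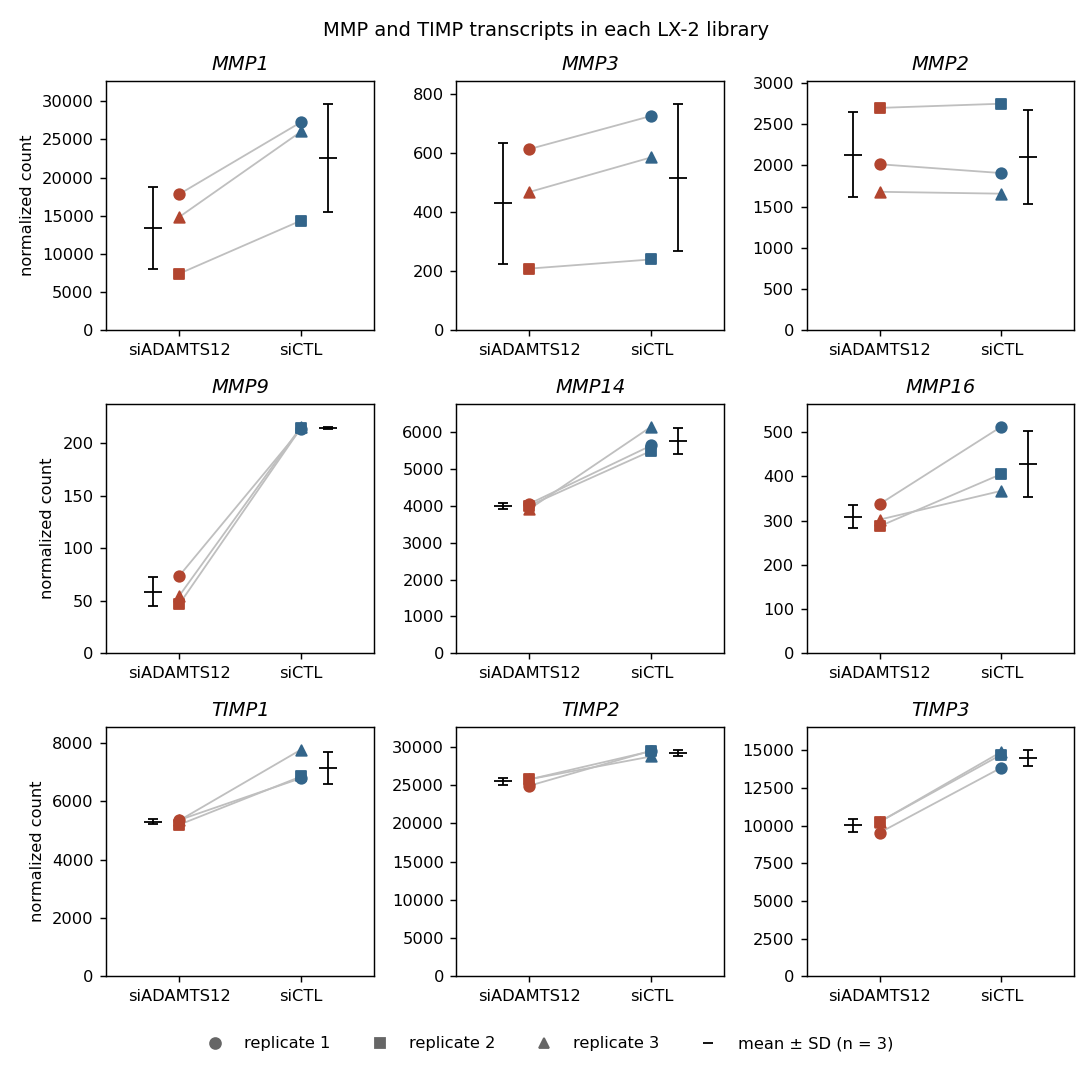
Normalized counts (y axis, linear from 0) of the 9 tested MMP and TIMP genes in siADAMTS12 and siCTL libraries. Symbols mark the replicate number, grey lines join libraries with the same number, and black bars give the mean ± SD of 3 libraries. The groups are apart for MMP9, MMP14, MMP16 and the TIMPs, while for MMP1, MMP2 and MMP3 the square of replicate 2 stands away from the other replicates in both groups.

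Of the secreted collagen-cutting enzymes, MMP1 (ENSG00000196611, chr11:102789920-102798160, minus strand) cleaves fibrillar collagens I and III. Its values were 17849, 7437 and 14860 in siADAMTS12 replicates 1, 2 and 3, against 27269, 14385 and 26038 in the siCTL replicates. Replicate 2 was the lowest library of both groups, and the groups overlapped because siCTL replicate 2 lay below siADAMTS12 replicates 1 and 3. Compared with the siCTL library of the same number, MMP1 was at 65.5%, 51.7% and 57.1% in siADAMTS12 replicates 1, 2 and 3.

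The MMP1 log2 fold change was -0.79 ± 0.30 (SE) by group alone, with limma adjusted p = 0.0700, which missed the threshold. With the replicate block it was -0.79 ± 0.06 with limma adjusted p = 2.07e-05. Its adjusted p by group alone was 0.0195 without siADAMTS12 replicate 1 and 0.0238 without siCTL replicate 2, at log2 fold changes of -1.05 and -1.09. It did not pass without any other single library (0.0818 to 0.213), and without siADAMTS12 replicate 2 the log2 fold change was -0.41 (limma adjusted p = 0.202). The adjusted p was 0.00249, at a log2 fold change of -0.71, when replicate 2 was left out of both groups, a step chosen after the values were seen. Over all alternatives it ran from 2.07e-05 to 0.214.

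MMP3 (ENSG00000149968, chr11:102835801-102843803, minus strand), stromelysin 1, cuts proteoglycans, fibronectin and laminin and can activate other MMP precursors. It stood at 613, 209 and 468 in siADAMTS12 replicates 1, 2 and 3, against 725, 240 and 585 in the siCTL replicates. The order of the replicates was the same in both groups as for MMP1, with replicate 2 lowest, and the groups overlapped. The siADAMTS12 library was at 84.6%, 87.1% and 80.0% of the siCTL library of the same number. The log2 fold change was -0.25 ± 0.41 (SE, limma adjusted p = 0.698) by group alone and -0.25 ± 0.08 (limma adjusted p = 0.0284) with the block. After each library was also divided by its total, the block no longer called MMP3, and its adjusted p ran from 0.0241 to 0.940 over all alternatives.

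MMP10 (ENSG00000166670), stromelysin 2, lies beside MMP1 and MMP3 in a run of 9 MMP genes on chromosome 11. It had normalized counts of 1, 0 and 0 in the siADAMTS12 libraries and 2, 0 and 0 in the siCTL libraries. The other genes of the run, MMP7, MMP8, MMP12, MMP13, MMP20 and MMP27, did not exceed 7 in any library. Of this cluster, then, LX-2 cells held measurable MMP1 and MMP3 in every library. In the promoter table of RefSeq (GRCh38.p14, 250 bases before to 50 after the start) 4 members were listed. The pattern TGANTCA, with any middle letter, was searched. It is looser than the core of the AP-1 site, whose middle letter is C or G. The MMP10 window held it as TGAATCA, with an A in the middle, and so not as that core. The pattern was in none of MMP14, TIMP1 and TIMP3, against 7.76% of 27305 promoters.

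MMP2 (ENSG00000087245, chr16:55389700-55506691, plus strand) is the gelatinase also called gelatinase A, made by stellate cells. It stood at 2015, 2698 and 1681 in siADAMTS12 replicates 1, 2 and 3, and at 1908, 2749 and 1658 in the siCTL replicates. Replicate 2 was the highest library of both groups, opposite to MMP1 and MMP3. The siADAMTS12 library was at 106.0%, 98.1% and 101.0% of the siCTL library of the same number. The log2 fold change was 0.02 ± 0.18 (SE, limma adjusted p = 0.947), with a 95% interval from -0.38 to 0.43. With the block the interval narrowed to -0.09 to 0.14 (limma adjusted p = 0.757). Divided by library totals, MMP2 passed with the block at a log2 fold change of 0.15, but the median of all genes moved by 0.13 under that scaling, which leaves 0.02 relative to it.

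MMP9 (ENSG00000100985, chr20:46008908-46016561, plus strand), the other gelatinase, had the largest fold change of the 10 genes. It was at 74, 47 and 55 in the siADAMTS12 libraries and at 214, 215 and 216 in the siCTL libraries. The siCTL libraries differed by no more than 2, and no siADAMTS12 library came near them. The log2 fold change was -1.88 ± 0.17 (SE, limma adjusted p = 1.19e-05), the 17th largest fall among the 15637 genes tested, and ADAMTS12 ranked 21. The siADAMTS12 mean was 27.3% of the siCTL mean. MMP9 has a 3' UTR of 193 bases that held neither the 7-base nor the 6-base match to the guide.

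The membrane-anchored proteases cut matrix at the cell surface. MMP14 (ENSG00000157227, chr14:22836557-22849027, plus strand), also called MT1-MMP, is the main activator of the MMP2 precursor. It stood at 4055, 4006 and 3912 in siADAMTS12 libraries and at 5633, 5488 and 6144 in siCTL libraries. The siADAMTS12 libraries lay close together and below all siCTL libraries. Its log2 fold change was -0.53 ± 0.06 (SE, limma adjusted p = 7.98e-05), and its 3' UTR held 1 copy of the 6-base match.

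MMP16 (ENSG00000156103, chr8:88032009-88328025, minus strand), or MT3-MMP, was at 337, 287 and 302 in siADAMTS12 libraries, against 512, 405 and 367 in siCTL libraries. The groups did not overlap, but the nearest libraries, 337 and 367, were close, and the siCTL libraries were spread more widely. MMP16 had a log2 fold change of -0.46 ± 0.13 (SE, limma adjusted p = 0.0191). The call was lost without siADAMTS12 replicate 2 (limma adjusted p = 0.0541), without siADAMTS12 replicate 3 (0.0604) or without siCTL replicate 1 (0.0723), and over all alternatives the adjusted p ran from 0.00282 to 0.0977. The part of its 7-base and 6-base guide matches in the fall was not tested.

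All of the inhibitors tested were lower, TIMP2 less firmly than the others. TIMP1 (ENSG00000102265, chrX:47582313-47586789, plus strand), a secreted inhibitor that rises in liver fibrosis, was at 5364, 5202 and 5348 in siADAMTS12 libraries and at 6800, 6857 and 7780 in siCTL libraries. Every siADAMTS12 library was below every siCTL library, and the siADAMTS12 values were the tighter group. TIMP1 had a log2 fold change of -0.43 ± 0.07 (SE, limma adjusted p = 0.000583). Its 3' UTR of 98 bases held no match to the guide.

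TIMP3 (ENSG00000100234, chr22:32801701-32863043, plus strand) binds to the matrix and also inhibits ADAM and ADAMTS proteases. It was at 9532, 10254 and 10249 in siADAMTS12 libraries, against 13851, 14719 and 14904 in siCTL libraries. The groups were well apart, and the same-numbered libraries were at 68.8%, 69.7% and 68.8%. The log2 fold change was -0.53 ± 0.06 (SE, limma adjusted p = 7.49e-05). The 3' UTR of TIMP3, of 3666 bases, carried the 7-base guide match shown above, and the part of this match in the fall was not tested.

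TIMP2 (ENSG00000035862, chr17:78852977-78925387, minus strand) is the inhibitor that, bound to MMP14 at the cell surface, docks the MMP2 precursor for activation. It was at 24925, 25756 and 25771 in siADAMTS12 libraries and at 29507, 29447 and 28753 in siCTL libraries. The groups did not overlap and both were tight. The log2 fold change was -0.20 ± 0.06 (SE, limma adjusted p = 0.0314), the smallest of the 6 falls. TIMP2 turned to a log2 fold change of 0.02 after quantile normalization, and after division by library totals it stood at -0.07, or -0.20 relative to the median of all genes. The call was lost when any 1 library other than siADAMTS12 replicate 2 was left out (limma adjusted p = 0.0698 to 0.101), and the adjusted p ran from 0.0101 to 0.875 over all alternatives.

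**Figure D2:**
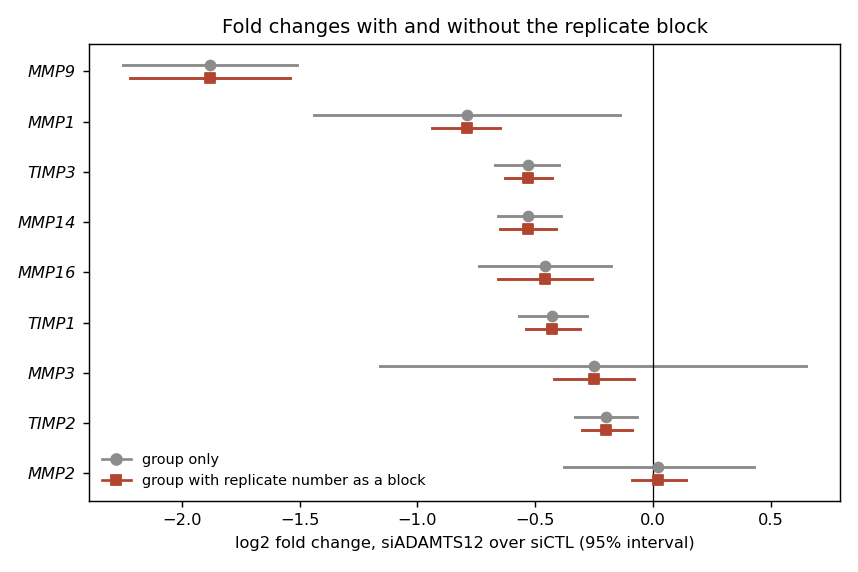
Log2 fold changes of the 9 tested genes (x axis, siADAMTS12 over siCTL) with 95% intervals from limma. Grey circles are the fit by group alone and red squares the fit blocked by replicate. The MMP1 interval runs from -1.44 to -0.14 by group alone and from -0.94 to -0.65 with the block, and the MMP3 interval from -1.16 to 0.65 and from -0.42 to -0.08.

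The spread between libraries split the genes. By group alone, MMP3 had a residual SD of 0.82 on the log2 scale, higher than that of 99.1% of all genes tested, and MMP1 had 0.60, higher than 96.8%. MMP2 followed with 0.36, higher than 88.8%, whereas the median over all genes was 0.12. With the replicate block these became 0.04 for MMP3, 0.12 for MMP1 and 0.04 for MMP2, beside a median of 0.09. TIMP1, TIMP2, TIMP3 and MMP14 were at 0.02 to 0.08 by group alone.

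For these 3 genes replicate 2 stood away from replicates 1 and 3, a contrast chosen after the values were seen and given with no test. MMP1 in replicate 2 lay below the mean of replicates 1 and 3 by a log2 difference of -1.13 in siADAMTS12 cells and -0.89 in siCTL cells. For MMP3 the differences were -1.35 in siADAMTS12 cells and -1.44 in siCTL cells. For MMP2 they were 0.55 in siADAMTS12 cells and 0.63 in siCTL cells. Averaged over both groups, 0.04% of all genes tested were further down than MMP3 in replicate 2 and 0.24% further down than MMP1, and 98.21% were below MMP2. Outside the family, DCN, which codes for the collagen-binding proteoglycan decorin, was at 1.01 and the smooth muscle actin gene ACTA2 at 0.67, both picked for their values, while TNC was at -0.04 and SPARC, a collagen-binding matrix protein, at 0.11. The TIMP genes and MMP14 stayed between -0.06 and 0.04, while MMP16 was at -0.12 and MMP9 at -0.22.

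**Figure D3:**
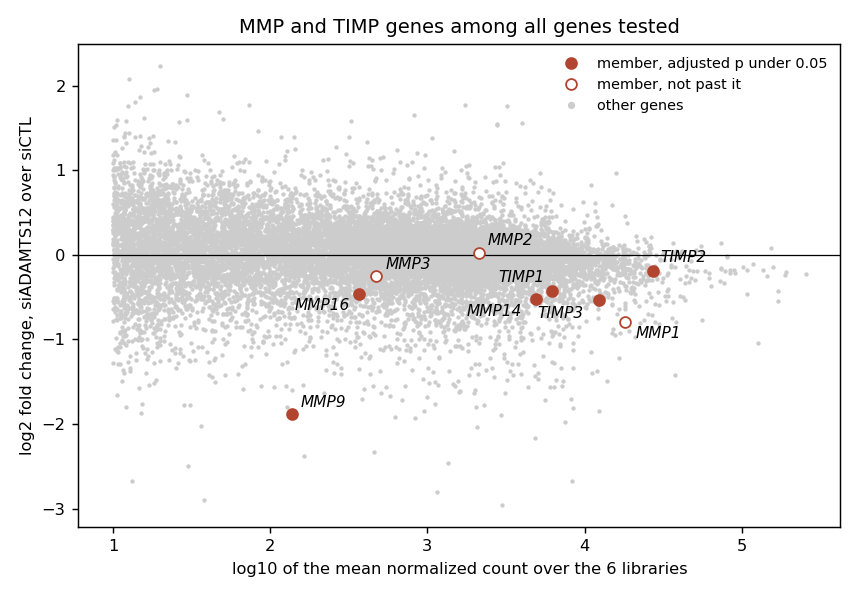
Log2 fold change (y axis, siADAMTS12 over siCTL, fit by group alone) against the log10 mean normalized count of the 6 libraries (x axis) for 15637 genes. Filled red points are MMP and TIMP genes with an adjusted p under 0.05, open red points those that did not pass, and grey points all other genes. MMP9 lies at -1.88, at the lower edge of the genes of its level.

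Per kilobase of exon (the union of GENCODE 29 exons), MMP1 was the most abundant of the 10 transcripts in both groups. Its level was 6793 ± 2721 normalized counts per kilobase in siADAMTS12 cells and 11454 ± 3609 in siCTL cells (SD, n = 3). TIMP2 followed at 4524 ± 86.0 in siADAMTS12 cells and 5190.1 ± 74.4 in siCTL cells, then TIMP1 at 3442 ± 57.9 and TIMP3 at 2175 ± 90.2 in siADAMTS12 cells, against 4637 ± 357 and 3148 ± 122 in siCTL cells. MMP14 came next at 894 ± 16.3 in siADAMTS12 cells and 1289 ± 77.2 in siCTL cells.

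MMP2 at 408, 547 and 341 in siADAMTS12 libraries and 387, 557 and 336 in siCTL libraries, and MMP3 at 210 ± 99.9 in siADAMTS12 cells and 252 ± 122 in siCTL cells (per kilobase) were lower still. At the bottom, MMP16 at 25.5 ± 2.12 and MMP9 at 25.1 ± 5.94 overlapped in siADAMTS12 cells, while in siCTL cells MMP9 at 92.0 ± 0.428 was above MMP16 at 35.3 ± 6.21. MMP1 and TIMP2 overlapped in siADAMTS12 cells and MMP2 and MMP3 in siCTL cells. All other neighbours in the order were apart in all libraries of their group. With the length of 1 transcript in place of the exon union, TIMP2 at 6978 per kilobase stood above MMP1 at 6793 in siADAMTS12 cells, and TIMP1 at 8011 and TIMP2 at 8005 were level in siCTL cells.

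MMP1 made up 35.7% ± 10.2 of the summed level per kilobase of the 10 genes in siADAMTS12 cells and 42.4% ± 8.33 in siCTL cells (SD, n = 3). In replicate 2 its share was 24.3% in siADAMTS12 cells and 32.9% in siCTL cells, the lowest of each group. MMP14 held 4.90% ± 0.762 of the sum in siADAMTS12 cells and 4.91% ± 0.575 in siCTL cells. These shares rest on the exon union, and their size depends on that choice. With the length of 1 transcript, the shares of MMP1 and MMP14 were lower in every library. The mean MMP1 share was then 27.9% in siADAMTS12 cells and remained higher in siCTL cells.

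**Figure D4:**
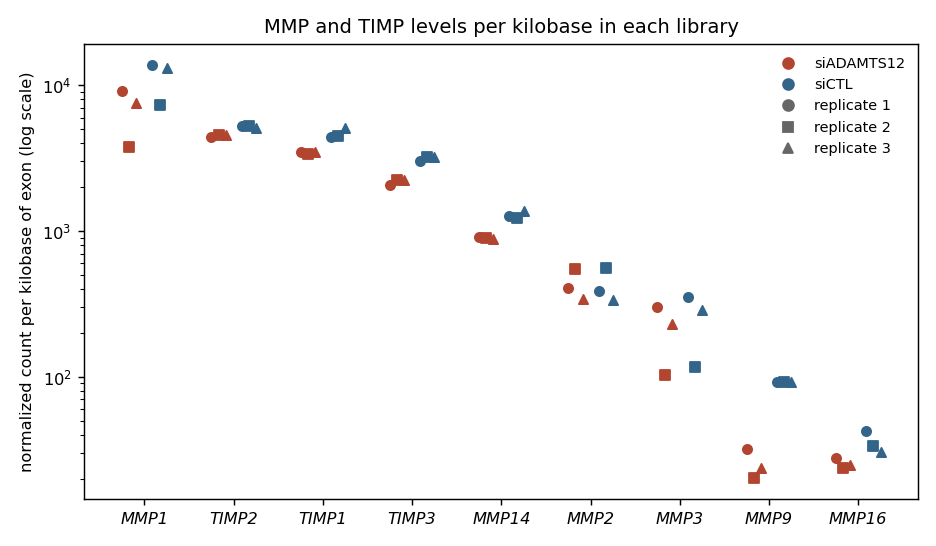
Normalized counts per kilobase of exon (y axis, log scale) for 9 genes, set from left to right by their siCTL mean. Red symbols are siADAMTS12 libraries, blue symbols siCTL libraries, and the shape gives the replicate number. The TIMPs sit in a narrow band, while MMP1 ranges from 3775 to 9060.4 in siADAMTS12 cells and from 7302 to 13842 in siCTL cells.

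Ratios of protease to inhibitor, and of MMP1 to other proteases, were taken per kilobase within each library, as a description. The exon union gave the lengths, and the size of a ratio depends on that choice. MMP14 over TIMP2, partners in MMP2 activation, was 0.205, 0.196 and 0.192 in siADAMTS12 libraries and 0.241, 0.235 and 0.270 in siCTL libraries. These did not overlap, and the ratio was lower in siADAMTS12 cells. MMP2 over TIMP2 was 0.0923, 0.120 and 0.0745 in siADAMTS12 libraries and 0.0738, 0.107 and 0.0658 in siCTL libraries, which overlapped but was higher in siADAMTS12 cells in each same-numbered pair. MMP9 over TIMP1 was 0.00910, 0.00596 and 0.00678 in siADAMTS12 libraries, against 0.0208, 0.0207 and 0.0183 in siCTL libraries, also apart. MMP1 over TIMP1 was 2.60, 1.12 and 2.17 in siADAMTS12 libraries and 3.14, 1.64 and 2.62 in siCTL libraries, which overlapped through replicate 2 but was lower in siADAMTS12 cells in each same-numbered pair. With the length of 1 transcript, replicate 2 held less MMP1 than TIMP1 per kilobase in both groups. The values were 3775 and 5832 in the siADAMTS12 library, and 7302 and 7687 in the siCTL library. MMP1 over MMP3 was 30.3, 37.0 and 33.0 in siADAMTS12 libraries, below the 39.1, 62.3 and 46.3 of the siCTL libraries. MMP1 over MMP2 was 22.2, 6.9 and 22.1 in siADAMTS12 libraries and 35.8, 13.1 and 39.3 in siCTL libraries, which overlapped.

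Sequence shared with other genes was found in 4 of the 10 members. Of the 31-base stretches in the chosen transcript, 7.23% of those in MMP10 also occurred in MMP3, 6.29% of those in MMP3 in MMP10, 4.69% of those in TIMP2 in CEP295NL, and 3.93% of those in MMP2 in AC007336.3, whereas MMP1, MMP9, MMP14, MMP16, TIMP1 and TIMP3 shared none. CEP295NL, inside TIMP2 on the same strand, stood between 19 and 48, and AC007336.3 at 0. The strand setting of the counting is not given in the sources used here. No annotated gene on the opposite strand of a member exceeded 6 in any library.

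Of 17 other genes of the family, TIMP4 among them, 5 were tested (MMP15, MMP17, MMP19, MMP24 and MMP25), and limma called 0 lower and 0 higher, in the fit by group alone and with the block alike, with 0 at an unadjusted p under 0.05 in either direction. The other 12 did not reach a mean of 10. The one with the smallest p was MMP19, at 738 ± 64.9 in siADAMTS12 cells and 818 ± 20.2 in siCTL cells (SD, n = 3), with a log2 fold change of -0.15 and limma adjusted p = 0.189.

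Genes that activate, clear or dock MMPs were lower in part. Of 22 such genes 15 were tested, and 6 fell and 1 rose, with a median log2 fold change of -0.13, beside 15.5% of all genes that fell and 11.5% that rose. PLAT, the tissue plasminogen activator, which generates plasmin, a protease that cleaves MMP precursors, was at 3208 ± 189.7 in siADAMTS12 cells and 9497 ± 488 in siCTL cells (SD, n = 3), a log2 fold change of -1.57 ± 0.07 (SE, limma adjusted p = 5.00e-08), and its 3' UTR held the 7-base guide match. TFPI2, a matrix-bound inhibitor of plasmin, stood at 1376, 982 and 1279 in siADAMTS12 libraries and 2294, 1785 and 2627 in siCTL libraries (log2 fold change -0.88, limma adjusted p = 0.000929). ITGB3, which with ITGAV forms an integrin that can dock MMP2, was at -0.79, and CD44, a hyaluronan receptor that can hold MMP9 at the surface, was at -0.36 (limma adjusted p = 0.00598). CD44 did not pass after quantile normalization (limma adjusted p = 0.153, within a range from 0.000767 to 0.153 over alternatives). The proprotein convertase PCSK7 rose to 2155 ± 86.7 in siADAMTS12 cells, against 1745 ± 20.1 in siCTL cells. FURIN, the convertase best known for removing the propeptide of MMP14, had a log2 fold change of -0.12 and did not pass (limma adjusted p = 0.180).

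Of the transcription factors known to bind MMP promoters all 18 were tested, and 4 fell and 1 rose by group alone, while 8 fell and 2 rose with the block. Of all genes 15.5% fell and 11.5% rose by group alone, and 19.6% fell and 15.5% rose with the block. The factors' median log2 fold change was -0.15. FOS, a subunit of AP-1, was at 38, 30 and 35 in siADAMTS12 libraries and 75, 64 and 75 in siCTL libraries (log2 fold change -1.04, limma adjusted p = 0.00195). FOSL1, another Fos family member, was at 18444, 21192 and 23549 in siADAMTS12 libraries and 22342, 25053 and 29512 in siCTL libraries. The groups overlapped, and FOSL1 passed only with the block (log2 fold change -0.28, limma adjusted p = 0.0795 by group alone and 0.00154 with it). JUND rose to 1941, 2079 and 3152 in siADAMTS12 libraries, against 908, 1911 and 1103 in siCTL libraries (log2 fold change 0.91, limma adjusted p = 0.0156). Its call was lost without siADAMTS12 replicate 3 (limma adjusted p = 0.0636), siCTL replicate 1 (0.0522) or siCTL replicate 3 (0.0661), within a range from 0.00125 to 0.0993.

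FOSL2, ETS1 and ETV5 fell by 0.22, 0.22 and 0.27 on the log2 scale, and each call was lost under division by library totals and when some single libraries were left out. For FOSL2 these were siADAMTS12 replicate 1 (limma adjusted p = 0.0538) and siCTL replicate 2 (0.0617), within a range from 0.00638 to 0.507. For ETS1 they were siCTL replicates 1 (0.0508) and 3 (0.0562), within a range from 0.00481 to 0.288. For ETV5 they were siCTL replicates 1 (0.0596) and 3 (0.0549), within a range from 0.00317 to 0.155. FOSL2 and ETS1 also missed the threshold after quantile normalization (limma adjusted p = 0.507 and 0.288), and FOSL2 and ETV5 without the trend (0.0548 and 0.0625). The call changed in 8 of 17 alternatives for FOSL2, 6 for ETS1 and 4 for ETV5. Division by totals moved the median of all genes by 0.13.

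Of 24 MMP substrates 21 were tested, and 6 fell and 1 rose by group alone, while 12 fell and 1 rose with the block, against the same shares of all genes, 15.5% and 11.5% by group alone and 19.6% and 15.5% with the block. The substrates' median log2 fold change was -0.19. The anti-adhesive glycoprotein TNC was at 26755 ± 1084 in siADAMTS12 cells and 44753 ± 1711 in siCTL cells, and the proteoglycan VCAN at 4208 ± 207 in siADAMTS12 cells and 6894 ± 493 in siCTL cells (SD, n = 3). Their log2 fold changes were -0.74 and -0.71, with limma adjusted p = 1.23e-05 and 1.80e-05. IGFBP3, a growth factor binding protein that MMPs cut, was at -0.65. HSPG2, the basement membrane proteoglycan perlecan, rose by 0.37. The fibrillar collagen chains that MMP1 cuts did not pass by group alone. COL1A1 was at -0.18 (limma adjusted p = 0.177), COL1A2 at -0.26 (0.0907) and COL3A1 at -0.14 (0.593), while all 3 passed with the block (0.0259, 0.00215 and 0.0377). COL1A1 and COL1A2 also held the 7-base guide match, COL3A1 none.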

How the data were processed

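The table holds normalized counts for 60669 genes in 6 libraries, which the authors deposited as whole numbers. This score was made by the authors before deposit as normalized counts, using STAR, HTSeq, DESeq2 and the GRCh38 build, per the submitters' processing notes. The step each performed is not given in the sources used here. Raw counts were not used here, and the read depth behind each value is unknown. No count model was fitted here. limma 3.58.1 in R 4.3.3 (lmFit, eBayes with an intensity trend) was fitted to log2(value + 1) of the 15637 genes with a mean of at least 10, with group as the only term. This fit was also tried on simulated counts with a fixed dispersion and no effect of replicate number. That trial therefore does not cover the shared deviations of same-numbered libraries seen here. The pseudocount understates the fold changes of low genes. Columns were matched to samples by name. Same-numbered libraries had correlated deviations from their group means (0.37, 0.13 and 0.13, against -0.19 to 0.06 for different numbers), all above the 0.1 set for pairing, so the replicate block is given beside results whose call it changes. Gene positions, exon lengths and 3' UTRs come from GENCODE 29 (1 transcript per gene by APPRIS tag, basic set, then 3' UTR length). Python 3.11.15, pandas 2.3.3, scipy 1.17.1 and matplotlib 3.10.9 were used. The genes and lists were chosen with earlier results of these data known. The text names all 10 genes and ADAMTS12, and up to 5 genes past the threshold from each list, those with the smallest adjusted p. One gene that this rule picks is not reported here. FURIN, FOSL1, DCN, SPARC, ACTA2, SOX9, VIM, SERPINA1, LRAT, DES, RGS5 and the collagen chains COL1A1, COL1A2 and COL3A1 were named outside that rule after their values were seen.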

Additional observations from a re-analysis of the deposited data

How the results depend on the processing

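MMP9, MMP14, TIMP1 and TIMP3 kept their direction and their side of the threshold in all 17 alternatives (pseudocounts of 0.5 and 8, a minimum mean of 50 or no minimum above 0, scaling by totals, quantile normalization, no trend, the replicate block alone or with either scaling, each library left out, and replicate 2 left out of both groups). The number of members that fell ran from 4 to 6 when 1 library was left out and was 8 with the replicate block. The call or direction changed in 6 of 17 alternatives for MMP16 and in 12 of 17 for TIMP2. Beside single libraries left out, MMP16 missed the threshold after scaling by totals (adjusted p = 0.0705), without the trend (0.0665) and without replicate 2 of both groups (0.0977). TIMP2 missed it without the filter (0.0711), without the trend (0.0525), without replicate 2 of both groups (0.0824) and after scaling by totals (0.352), also with the replicate block (0.213). Scaling by totals moved the whole table, to 1546 genes that fell and 3869 that rose, against 2424 and 1798. With the replicate block, 2920 rose after quantile normalization and 4859 after scaling by totals, where 1 member, MMP2, rose. TIMP2 stood at 0.02 after quantile normalization, with or without the replicate block. MMP2 stood at -0.16 without siADAMTS12 replicate 2, at -0.03 without siCTL replicate 1 and at -0.13 without siCTL replicate 3. MMP3 stood at 0.20 without siADAMTS12 replicate 2 and at 0.06 without siCTL replicate 1. Leave-one-out log2 fold changes of MMP2 ran from -0.16 to 0.23 and those of MMP3 from -0.73 to 0.20. The cause of these shifts was not tested. Read depth is unknown, so the limit it sets on MMP10 could not be given.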
